A study of Mus musculus with 8 samples.

Results

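The regulators Sox9, Sox5 and Sox6 and the non-collagen cartilage matrix genes Acan, Hapln1, Matn1, Matn3, Matn4, Comp and Cnmd were followed in sorted forelimb cells with and without Bapx1. Every array probe that the platform annotation assigns to these symbols was taken, which gave 25 probes for 10 of 19057 named genes. Of the 45281 probes on the array, 20593 were above background on at least 4 of the 8 arrays and were compared, among them 17 probes of 8 of these genes. Forelimbs were dissected from mouse embryos at E12.5, dissociated, and the EGFP-positive cells were sorted, a gate meant to collect cells in which the Bapx1 (Nkx3-2) locus was active. The Bapx1 null samples (HomoBapx1, 4 replicates) came from embryos homozygous for tm4.Tlu, in which EGFP was inserted right behind the start codon of Bapx1. The Bapx1 wildtype samples (WTBapx1, 4 replicates) carried the tm2.Tlu allele, written as heterozygous in the study, in which EGFP follows an internal ribosome entry site in the 3' UTR of an intact gene. Both genotypes were of strain C57BL/6J;129 and both reported Bapx1 through EGFP, but the reporter's position and copy number go with the genotype and their effects cannot be told apart from it. Replicates are biological by the study's methods, and whether embryos were pooled is not given in the sources used here.

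Cartilage of the limb forms from condensed mesenchyme. Sox9 is the transcription factor that cells need to enter this lineage, and Sox5 and Sox6, which carry no activation domain of their own, act beside it on enhancers of cartilage genes. Chondrocytes then lay down a matrix of fibrillar collagens and aggrecan (Acan), in which link protein (Hapln1) fixes aggrecan to hyaluronan and the matrilins (Matn1, Matn3, Matn4) and Comp connect the networks. Cnmd encodes chondromodulin, a membrane protein of cartilage known for holding back blood vessels. Bapx1 is a homeobox factor of the same lineage, and whether its loss changed these genes in the forelimb was the question of the comparison.

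Because Bapx1 and Sox9 are DNA-binding factors, promoters of these genes were searched for short forms of their motifs, over 250 bases before and 50 bases after each start in RefSeq (GRCm38.p6). Of the 10 genes 8 have an entry, with 14 windows in all, and Sox9 and Comp have none. The Bapx1 forms TGAGTG and TAAGTG, on either strand, stood in 4 of these 14 windows, against 23.9% of all 32851 windows. The 4 matches follow in windows of 30 bases, so that the motif, in capitals, can be seen in its place. All are read on the minus strand of the chromosome, and a match is not a bound site.
Matn4, chr2:164405201-164405230: ttttcttttcttTGAGTGtagcacgggtca
Sox5, chr6:143947116-143947145: aatgtcacagacTAAGTGacttaggcaaca
Sox6, chr7:116038962-116038991: ccttcgtttcttTAAGTGcgatagatttat
Sox6, chr7:115846270-115846299: cagcagctgactTAAGTGttgaaccatcat
The Sox9 motif was searched in 8 forms of 7 letters, the trinucleotide CAA with A or T at both places before it and at the place behind it, closed by G. On either strand these forms stood in 24.6% of all windows and in 6 of the 14, and these 6 are the 6 windows of Sox6. Both Sox6 windows with a Bapx1 form thus also hold Sox9 forms, 1 in the first and 2 in the second, and these 3 follow, again on the minus strand.
Sox6, chr7:116038841-116038870: ttttttttcaggAACAAAGggaatgtggaa
Sox6, chr7:115846331-115846360: tctcctgtacgtTTCAAAGtgtgaccttcc
Sox6, chr7:115846168-115846197: gtgaatgtgcaaAACAAAGataaaagctat

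In the arrays as a whole, 817 of 20593 probes differed between null and wildtype at an adjusted p under 0.05, 380 higher and 437 lower in null cells. The median intensity per array lay between 57.9 and 70.4, from 43.8% to 46.1% of probes were above background, and precision is set by the 4 arrays per genotype. The Bapx1 probes were above background on all 4 null arrays (means 7.87 and 7.57) and on no wildtype array (4.49 and 4.47), so that these arrays did not detect the gene whose locus drove the sort in the wildtype samples; where they lie relative to the inserted EGFP was not analysed here. Of 7 measured limb mesenchyme markers none was called, and the forelimb factor Tbx5 was detected in both genotypes (means 5.72 in null and 5.89 in wildtype cells). The hindlimb gene Tbx4 was detected as well (9.38 and 8.79 in null and wildtype cells), while Pitx1 was below background. Markers of blood cells separated the genotypes. All 8 platelet markers and 7 of 8 macrophage markers were called lower in null cells (the eighth, Fcer1g, was at -1.27, adjusted p = 0.071), with summed intensities of 621 to 2666 in null against 9249 to 16701 in wildtype arrays for platelets and of 272 to 319 against 999 to 1714 for macrophages. Of 6 erythroid markers none was called. Muscle markers were lower too, 4 of 6 being called (summed intensity 1136 to 1368 in null and 1802 to 2149 in wildtype cells), and the part of these cells in the results below was not tested. In such bulk samples, fewer cells of a type and less RNA per cell cannot be told apart.

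None of the 17 probes of the Sox and matrix genes was called at an adjusted p under 0.05, where 3.97% of all compared probes were. At an unadjusted p under 0.05 there were 2 of 17, or 11.8%, against 17.4% of all probes, and the 4 null arrays lay wholly on one side of the 4 wildtype arrays in 0 of 17, against 12.3% of all. Changes, given throughout as log2 level in null minus wildtype, ran between -0.21 and 0.42. They were positive for 12 probes and negative for 5, with a median of 0.15, beside 0.0088 over all compared probes. Matn1, with the largest change, met the filter only through the null arrays. Among the 14 probes above background on all 8 arrays, which leave out Matn1, 10 were positive (median 0.16). For 7 of the 9 matrix probes the change was positive (median 0.20), and over the 8 Sox probes the median was 0.054. Probes of one gene are not separate observations, and Sox5 holds 5 of the Sox probes and Matn4 3 of the matrix probes. By the brightest compared probe of each of the 8 genes, 6 changes were positive (median 0.12). The median over all 17 was 0.034 without null replicate 1, and that over the matrix probes was 0.12 without background correction and 0.10 with saddle-point normexp, another correction. The 95% interval of the change excluded a 2-fold difference in 16 of the 17 probes and a 1.5-fold difference in 11.

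**Figure D1:**
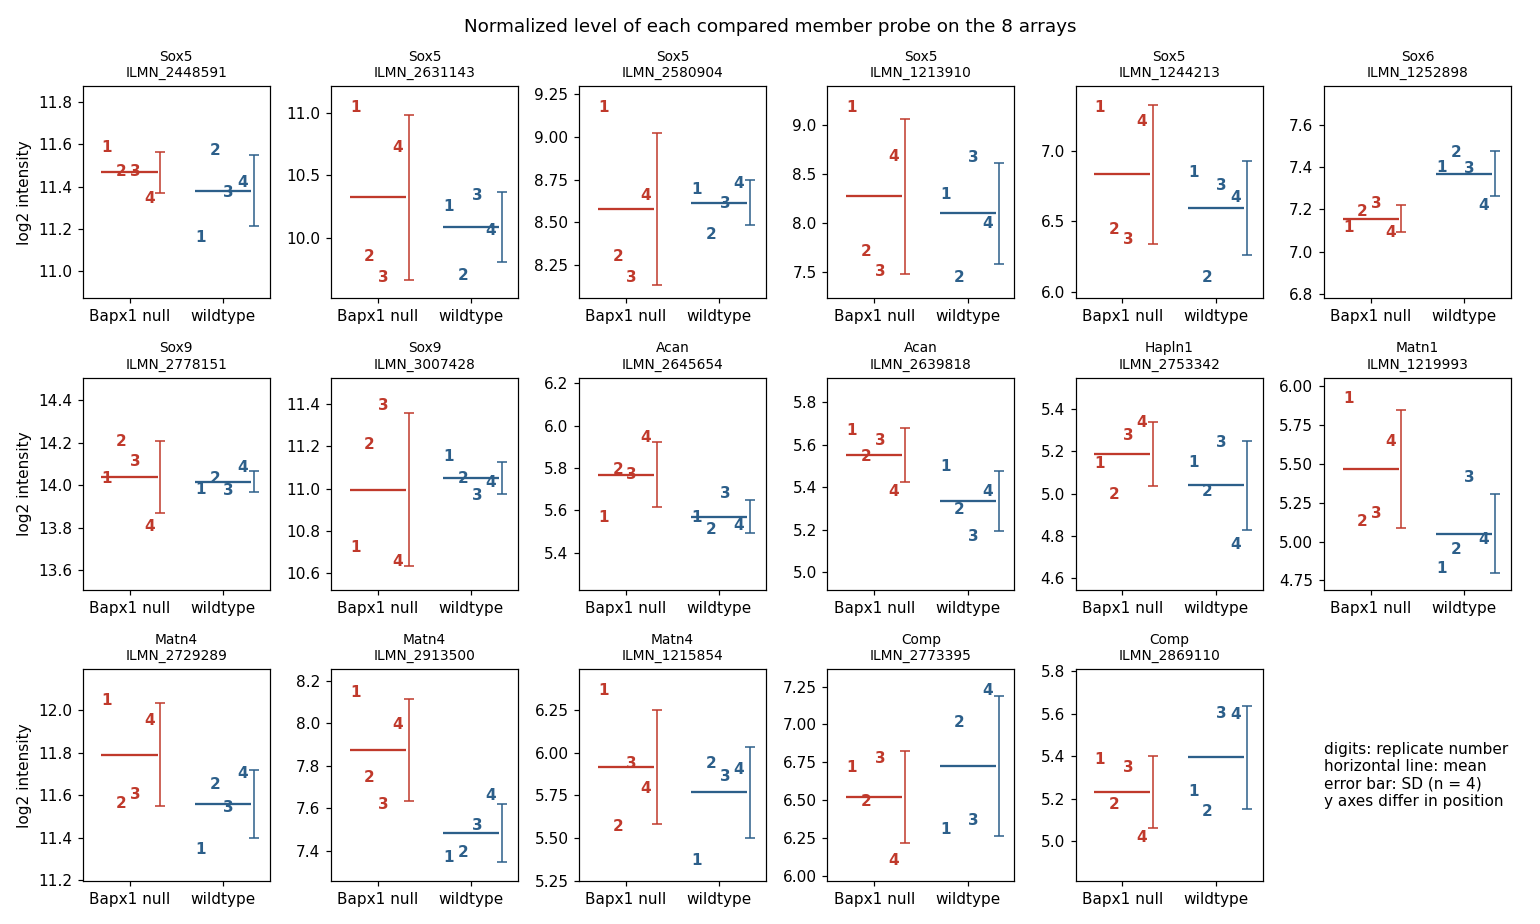
Normalized log2 intensity of each of the 17 compared probes, with Bapx1 null arrays at left and wildtype arrays at right of each panel; digits are replicate numbers, lines are means and bars are SD (n = 4). Null and wildtype arrays overlap in all 17 panels, and null replicates 1 and 4 part from 2 and 3 in several Sox5, Sox9, Matn1 and Matn4 panels.

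Sox9, the regulator at the head of the lineage, had nearly the same mean level in both genotypes by both of its probes. By ILMN_2778151 its normalized log2 level was 14.03, 14.21, 14.11 and 13.81 in null replicates 1 to 4, against 13.98, 14.03, 13.97 and 14.08 in wildtype replicates 1 to 4. The wildtype arrays all fell inside the range of the null arrays, which reached both higher and lower. The change was 0.022 ± 0.095 (SE, adjusted p = 0.94), with a 95% interval of -0.19 to 0.23 and an exact two-sided permutation p of 0.80. Its sign turned under scaling by the median absolute deviation (-0.018) and in the authors' processed table (-0.051). By the other probe, ILMN_3007428, the levels were 10.72, 11.21, 11.39 and 10.66 in null cells and 11.15, 11.05, 10.97 and 11.03 in wildtype cells. Here null replicates 1 and 4 lay below every wildtype array and null replicates 2 and 3 above every one, so that the mean change was -0.054 (95% interval -0.41 to 0.30, adjusted p = 0.90) although the null SD was 0.36 and the wildtype SD 0.08. Over the 8 arrays the 2 probes had a Pearson r of 0.71. By ILMN_2778151, the genes whose brightest probe ran most like Sox9 over the 8 arrays, among 11036, were Usp21 (r = 0.95), Spidr (r = 0.93) and Ccdc25 (r = 0.93). Being the highest of so many values over 8 arrays, these are a description only, and a link to Sox9 was not tested.

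Sox5, the partner of Sox6, was covered by 6 probes, of which 5 were compared, and none separated the genotypes. By ILMN_2631143, designed on a RefSeq transcript, the levels were 11.04, 9.85, 9.69 and 10.72 in null cells and 10.25, 9.70, 10.33 and 10.06 in wildtype cells. Null replicates 1 and 4 were above every wildtype array, while null replicate 3 was below every one and null replicate 2 was among the low ones. The change was 0.24 ± 0.29 (SE, 95% interval -0.41 to 0.89, adjusted p = 0.74). ILMN_1213910, also on a RefSeq transcript, had levels of 9.18, 7.71, 7.51 and 8.68 in null cells against 8.29, 7.45, 8.67 and 7.99 in wildtype cells. Its change of 0.17 had the widest interval among the 17 probes, -0.68 to 1.02 (adjusted p = 0.87), the only one that reached past a 2-fold difference. ILMN_1244213 gave 7.31, 6.44, 6.37 and 7.21 in null cells and 6.85, 6.10, 6.75 and 6.67 in wildtype cells, again with null replicates 1 and 4 above every wildtype array, and a change of 0.24 (-0.31 to 0.79, adjusted p = 0.69), or 0.075 without wildtype replicate 2. On ILMN_2580904, designed on a cDNA record, levels were 9.17, 8.30, 8.18 and 8.66 in null cells and 8.69, 8.43, 8.61 and 8.73 in wildtype cells. Only null replicate 1 stood above the wildtype arrays there, null replicates 2 and 3 were below them, and the change was -0.037 (-0.47 to 0.40, adjusted p = 0.95), with its sign turned under scaling by the median absolute deviation (0.040).

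The remaining compared Sox5 probe did not share this pattern of arrays. ILMN_2448591, for which the annotation gives no transcript accession, had levels of 11.58, 11.47, 11.47 and 11.34 in null cells and 11.16, 11.57, 11.37 and 11.42 in wildtype cells. The null arrays lay close together there, with an SD of 0.10, and the change was 0.087 (-0.14 to 0.31, adjusted p = 0.72), or 0.014 without wildtype replicate 1. Over the 8 arrays its Pearson r with the other 4 probes lay between -0.25 and 0.01, whereas r among those 4 lay between 0.80 and 0.97. A sixth probe, ILMN_2610223, was above background on 1 wildtype array and no null array and was not compared. Its values, 4.62 to 4.84 in null cells and 4.90 to 5.10 in wildtype cells, did not overlap but stood at background.

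Sox6 was measured by a single compared probe, ILMN_1252898, which was designed on a cDNA record. Its levels were 7.11, 7.19, 7.23 and 7.09 in null cells and 7.40, 7.47, 7.39 and 7.22 in wildtype cells. All null arrays lay below wildtype replicates 1 to 3, and only wildtype replicate 4 fell within the null range. The change of -0.21 ± 0.08 (SE, 95% interval -0.39 to -0.03) did not pass the test (adjusted p = 0.20), and the exact two-sided permutation p was 0.057, where the smallest that the 70 assignments allow is 0.029. The other 4 Sox6 probes were not compared. The 3 of them on RefSeq transcripts were above background on no array, and ILMN_2566142, on a cDNA record, was above it on null replicate 1 alone (5.59). The Sox6 level in both genotypes therefore rests on a probe whose annotation cites a cDNA record, and which transcript it reports was not analysed here.

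Acan, the core protein of the large cartilage proteoglycan, had higher mean levels in null cells by both of its probes, without passing the test. Both probes read low, between 5.16 and 5.94, though above background on all 8 arrays. By ILMN_2645654 the levels were 5.57, 5.79, 5.77 and 5.94 in null cells and 5.56, 5.51, 5.68 and 5.53 in wildtype cells. Null replicates 2, 3 and 4 lay above every wildtype array, and null replicate 1 lay among them. The change was 0.20 ± 0.09 (SE, 95% interval -0.01 to 0.41, adjusted p = 0.32). By ILMN_2639818 the levels were 5.67, 5.54, 5.62 and 5.38 in null cells against 5.50, 5.30, 5.16 and 5.38 in wildtype cells. There null replicates 1, 2 and 3 were the higher ones, and the change was 0.22 ± 0.10 (-0.0022 to 0.44, adjusted p = 0.29). The changes were 0.12 by both probes without background correction and 0.10 by both with saddle-point normexp. The arrays that stood out thus differed between the probes, whose Pearson r over the 8 arrays was 0.07. With each genotype's mean removed it was -0.74, so the probes did not bear each other out array by array. By ILMN_2645654 alone, the genes whose brightest probe ran most like Acan, among 11036, were Gsdme (r = 0.98), Col5a1 (r = 0.96) and Sema3a (r = 0.96). These too are the highest of many values over 8 arrays, and a link to Acan was not tested.

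Hapln1, the link protein, was near background in both genotypes. Its probe had levels of 5.14, 4.998, 5.28 and 5.33 in null cells and 5.15, 5.01, 5.24 and 4.76 in wildtype cells, above background on 3 null and 2 wildtype arrays. The arrays overlapped apart from the low wildtype replicate 4 and the higher null replicates 3 and 4, and the change was 0.15 (95% interval -0.12 to 0.42, adjusted p = 0.60). It was 0.055 without wildtype replicate 4 and 0.071 with saddle-point normexp.

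Among the matrilins, adaptor proteins of the cartilage matrix, Matn1 and Matn4 were compared and Matn3 was not. Matn1 had levels of 5.92, 5.13, 5.18 and 5.64 in null cells and 4.83, 4.95, 5.41 and 5.01 in wildtype cells. It was above background on all 4 null arrays and on wildtype replicate 3 alone, and null replicates 1 and 4 lay above every wildtype array. The filter of 4 arrays was thus met only through the null arrays, where Matn1 was higher. The change was 0.42 ± 0.19 (SE), with a 95% interval of -0.01 to 0.84 and an adjusted p of 0.30. It was 0.24 without background correction, 0.20 with saddle-point normexp and 0.27 without null replicate 1. Both Matn3 probes were above background on no array and read between 4.37 and 4.85 over both genotypes.

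Matn4 was positive by all 3 of its probes, none of which passed the test. On ILMN_2729289 the levels were 12.04, 11.56, 11.60 and 11.95 in null cells and 11.34, 11.65, 11.54 and 11.70 in wildtype cells. Null replicates 1 and 4 stood above every wildtype array and null replicates 2 and 3 among them, with a change of 0.23 (95% interval -0.06 to 0.53, adjusted p = 0.41). ILMN_2913500 gave 8.14, 7.74, 7.62 and 7.996 in null cells and 7.37, 7.39, 7.52 and 7.66 in wildtype cells. Only null replicate 3 lay within the wildtype range on this probe. Its change of 0.39 ± 0.13 (SE, 0.11 to 0.67) had the lowest adjusted p of the 17 probes, 0.14, and an exact two-sided permutation p of 0.057. For ILMN_1215854 the levels were 6.36, 5.57, 5.94 and 5.79 in null cells and 5.37, 5.93, 5.86 and 5.90 in wildtype cells, and the change was 0.15 (-0.26 to 0.55, adjusted p = 0.74). Null replicate 1 was the highest array on all 3 probes and wildtype replicate 1 the lowest.

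Comp, a thrombospondin of cartilage and tendon matrix, was the matrix gene with lower mean levels in null cells. By ILMN_2773395 it had 6.72, 6.49, 6.77 and 6.10 in null cells and 6.31, 7.01, 6.37 and 7.22 in wildtype cells. Wildtype replicates 2 and 4 lay above every null array, wildtype replicates 1 and 3 did not, and the change was -0.21 ± 0.23 (SE, 95% interval -0.72 to 0.30, adjusted p = 0.71). Without wildtype replicate 4 it was -0.041. By ILMN_2869110 the levels were 5.38, 5.17, 5.35 and 5.02 in null cells and 5.24, 5.14, 5.60 and 5.60 in wildtype cells, with a change of -0.16 (-0.46 to 0.13, adjusted p = 0.59), or -0.078 with saddle-point normexp. The wildtype arrays above the null range were 3 and 4 on this probe. Cnmd was above background on 1 array of each genotype, read 4.83 to 5.11 in null cells and 4.65 to 5.22 in wildtype cells, and was not compared.

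**Figure D2:**
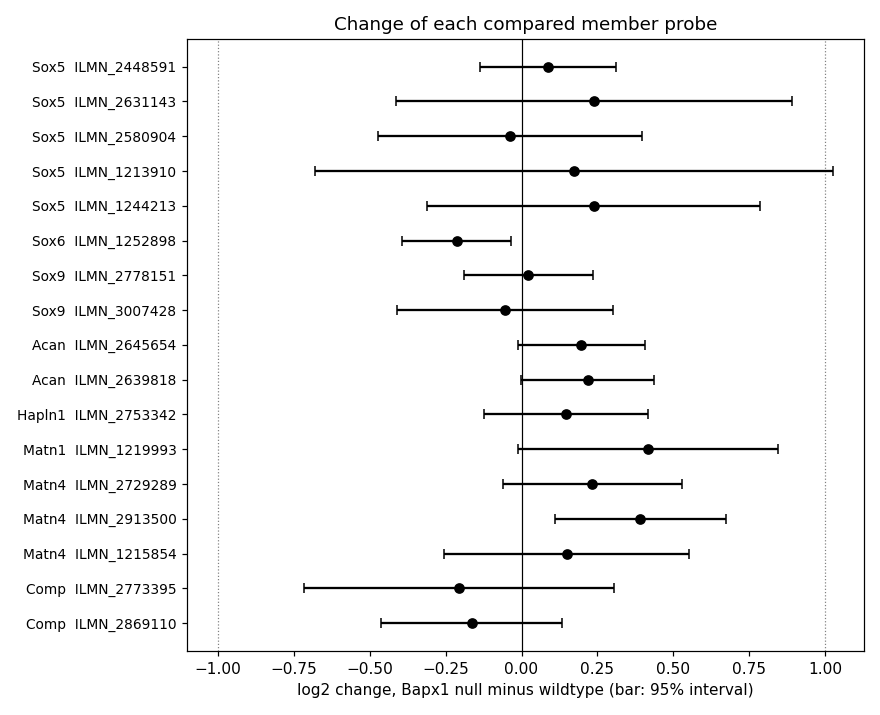
Log2 change (Bapx1 null minus wildtype) of the 17 compared probes on the horizontal axis, with 95% intervals; dotted lines mark a 2-fold difference. The changes lie between -0.21 and 0.42, and the interval of 1 Sox5 probe passes the dotted line.

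The arrays of one genotype were not alike for these genes. The null arrays spanned a wider range than the wildtype arrays in 11 of the 17 probes, where 48.3% of all compared probes did so. Several of the 11 are probes of Sox5 or Matn4 and are not separate observations. Over all compared probes, null arrays correlated with each other at r of 0.983 to 0.998 and wildtype arrays at 0.988 to 0.994. Null replicates 1 and 4 were the 2 higher null arrays on 4 Sox5 probes, on Matn1 and on 2 Matn4 probes, and the 2 lower ones on both Sox9 probes. Over the 8 arrays the Pearson r of Sox5 ILMN_2631143 was 0.81 with Matn1 and -0.86 with Sox9 ILMN_3007428, which share arrays and normalization and are given as a description. The same null arrays parted in other measures, so the split was not particular to these genes. The limb mesenchyme marker Prrx1 was at 8.94, 8.22, 8.13 and 9.07 in null replicates 1 to 4. Another, Tbx5, did not part in this way (5.19, 5.69, 6.05 and 5.95). The mean log2 level of 4 Y-linked genes (Ddx3y, Eif2s3y, Kdm5d and Uty) was 7.73, 8.29, 8.44 and 7.65 in null replicates 1 to 4 and 7.52, 7.65, 7.24 and 7.40 in wildtype replicates 1 to 4. Summed platelet markers were at 2565, 874, 621 and 2666 in the null replicates and at 16701, 9249, 9503 and 9432 in the wildtype replicates.

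**Figure D3:**
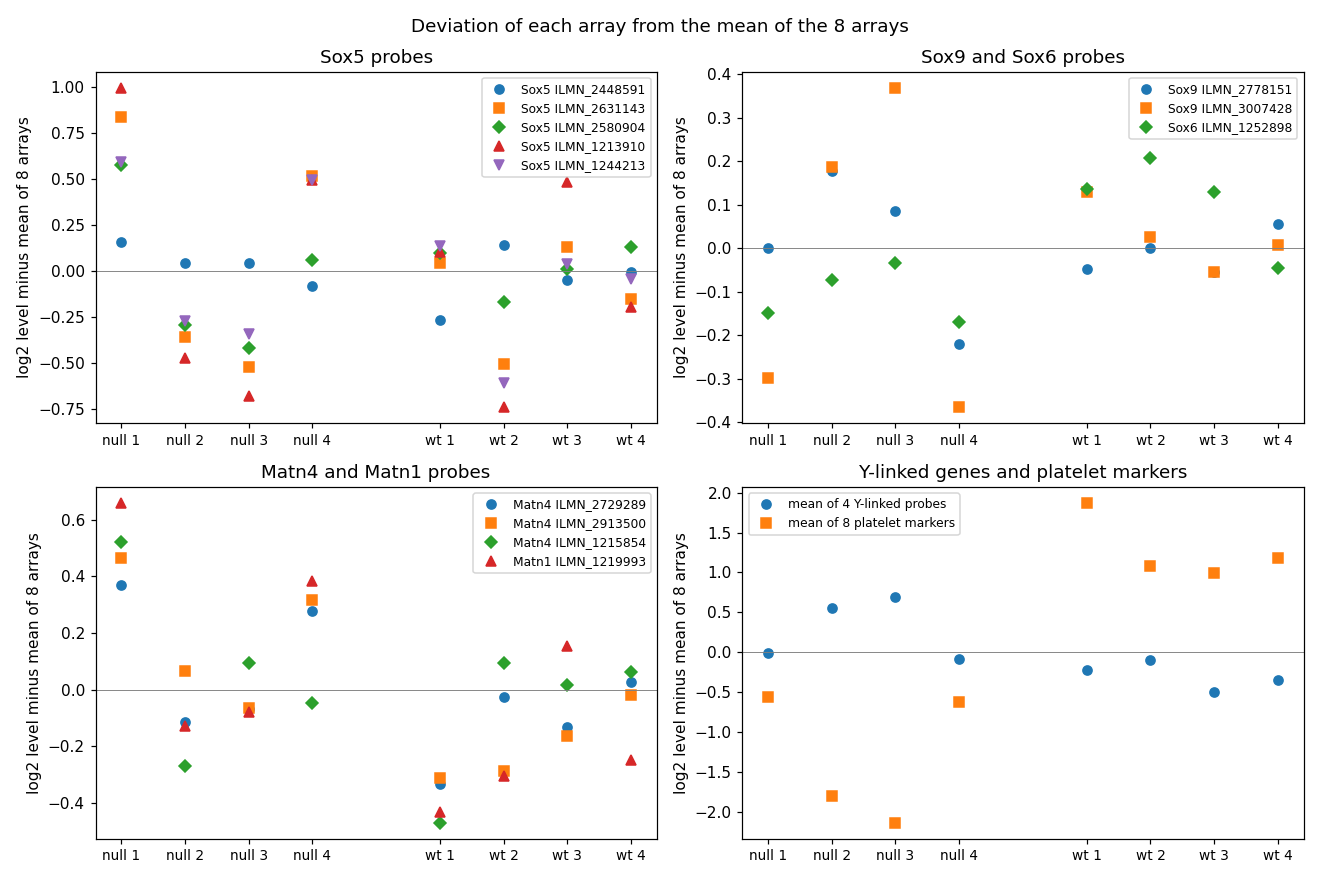
Log2 level of each array minus the mean of the 8 arrays, for Sox5, for Sox9 and Sox6, for Matn4 and Matn1, and for Y-linked genes and platelet markers, with null replicates 1 to 4 left of wildtype (wt) replicates 1 to 4; each symbol is a probe or a mean over probes. Null replicates 1 and 4 lie above null replicates 2 and 3 for 4 Sox5 probes and for the platelet mean, and below them for Sox9 and the Y-linked mean.

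When the mean Y-linked level entered the fit as a covariate, 6 of the 17 probes were called, against 8.49% of all compared probes. Sox5 was higher in null cells on 3 probes, by 1.13 (ILMN_2631143, adjusted p = 0.010), 1.32 (ILMN_1213910, adjusted p = 0.019) and 0.95 (ILMN_1244213, adjusted p = 0.020). Matn1 was higher by 0.95 (adjusted p = 0.013) and Matn4 by 0.71 (ILMN_2913500, adjusted p = 0.014), and Sox9 was at -0.52 on ILMN_3007428 (adjusted p = 0.031). Without the term, these 6 probes were at 0.24, 0.17, 0.24, 0.42, 0.39 and -0.054 in the same order. The Y-linked ranges of null and wildtype arrays did not overlap (lowest null array 7.650, highest wildtype array 7.645). The term and the genotype therefore cannot be fully told apart, and the changes in this fit are extrapolated. Without null replicates 2 and 3, which leaves 2 null arrays, 3 of the 17 probes were called against 5.73% of all: Sox5 ILMN_2631143 at 0.80 (adjusted p = 0.046), Matn1 at 0.71 (adjusted p = 0.046) and Matn4 ILMN_2913500 at 0.58 (adjusted p = 0.031). These arrays were chosen with their values known, and what sets them apart was not tested.

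Other genes of chondrogenesis were read by the brightest compared probe of each. Of 28 listed, 20 were measured, with 3 called higher in null cells and none called lower, where 3.97% of all compared probes were called. The median change of the 20 was 0.17, beside 0.0088 over all compared probes. Chad, which encodes the matrix protein chondroadherin, had levels of 5.67, 5.32, 5.64 and 5.66 in null cells and 4.69, 4.47, 5.08 and 4.73 in wildtype cells, where it was above background on 1 array. Its change was 0.83 ± 0.14 (SE, adjusted p = 0.010), and the groups did not overlap. For Chad, and for Scrg1 below, the filter of 4 arrays above background was met only through the null arrays, where both were higher. Scrg1, a small secreted protein of cartilage, averaged 6.07 ± 0.25 in null cells and 5.07 ± 0.32 in wildtype cells (SD, n = 4 each), a rise of 1.004 (adjusted p = 0.013), with 2 wildtype arrays above background. Mia, a secreted protein of chondrocytes, averaged 10.26 ± 0.09 in null cells and 9.61 ± 0.25 in wildtype cells (SD, n = 4 each) and rose by 0.65 by either probe (adjusted p = 0.018 and 0.041). The changes of Chad and Scrg1, which were near background in wildtype cells, were 0.52 and 0.60 without background correction and 0.43 and 0.51 with saddle-point normexp, still past the test. All 3 calls were lost under scaling by the median absolute deviation (adjusted p = 0.12, 0.12 and 1.0 for Chad, Scrg1 and Mia) and by the methods' t-test (adjusted p = 0.061, 0.075 and 0.074), and Mia's also without null replicate 4 (adjusted p = 0.057) or wildtype replicate 2 (adjusted p = 0.054). The cartilage collagen gene Col2a1, named after its values were seen, averaged 12.87 ± 0.07 in null cells and 12.55 ± 0.12 in wildtype cells (SD, n = 4 each). Its arrays did not overlap, and its change of 0.32 did not pass the test (adjusted p = 0.073), though it did with a robust variance trend (adjusted p = 0.017). By ILMN_2759142 and ILMN_2759144 the Col2a1 change was 0.30 (adjusted p = 0.096) and 0.22 (adjusted p = 0.27). Pkdcc of the same list, also named after its values were seen, went the other way. It averaged 9.61 ± 0.07 in null cells and 10.20 ± 0.31 in wildtype cells (SD, n = 4 each), without overlap. Its change of -0.58 did not pass the test either (adjusted p = 0.054).

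**Figure D4:**
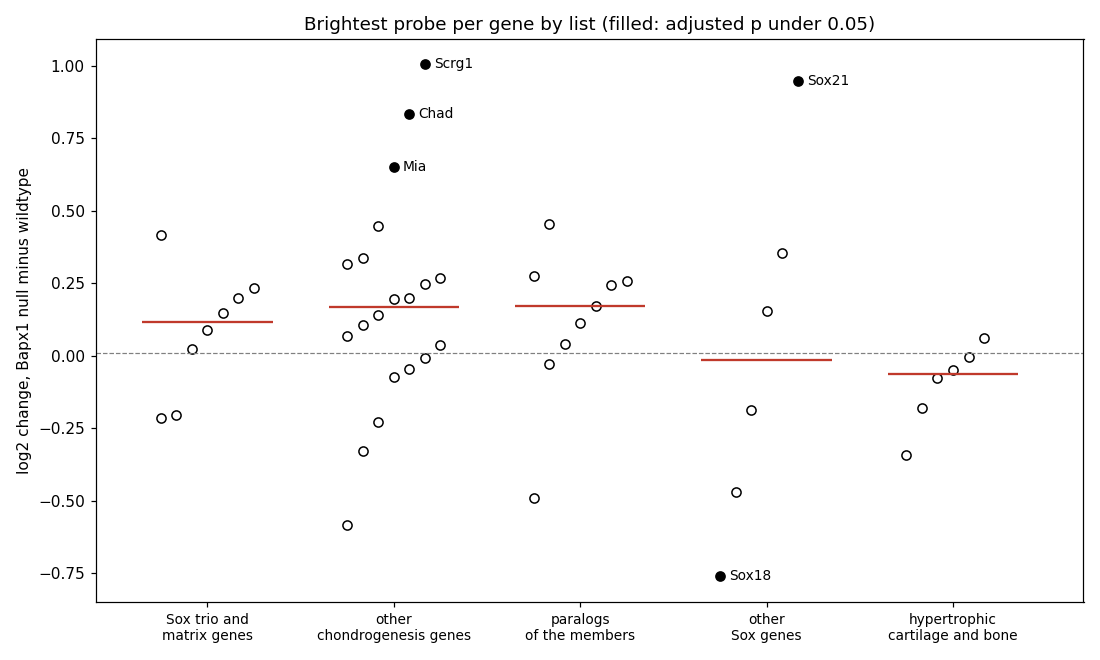
Log2 change (Bapx1 null minus wildtype) of the brightest compared probe of each gene, by gene list; red lines are list medians, the dashed line is the median of all compared probes, and filled points passed the test. Scrg1, Chad, Mia and Sox21 are filled above 0 and Sox18 below, and no point is filled among the Sox trio and matrix genes.

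Genes related to these by sequence were measured for 9 of 15, and none was called (median 0.17). The largest changes were those of the thrombospondins Thbs1 (-0.49, adjusted p = 0.28), Thbs2 (0.45, adjusted p = 0.18) and Thbs3 (0.28, adjusted p = 0.22). By ILMN_2840958 and ILMN_2840956 the Thbs3 change was 0.32 (adjusted p = 0.066) and 0.19 (adjusted p = 0.33). Among 13 other Sox genes, 6 were measured, with 1 called higher, 1 called lower and a median of -0.02. Over all compared probes, 3.97% were called. Sox21, a factor best known from neural progenitors, was 6.10, 6.56, 6.73 and 6.44 in null cells and 5.34, 5.71, 5.44 and 5.56 in wildtype cells, a rise of 0.95 ± 0.14 (SE, adjusted p = 0.0058) without overlap. This came from ILMN_1254295, while the other 2 Sox21 probes were above background on no array, and the rise was 0.61 without background correction and 0.53 with saddle-point normexp. Sox18, a factor of endothelial cells, averaged 6.46 ± 0.33 in null cells and 7.22 ± 0.24 in wildtype cells (SD, n = 4 each) and fell by 0.76 (adjusted p = 0.042), a call lost without any of 6 of the 8 arrays (adjusted p up to 0.11 among these). Of 7 endothelial markers measured 2 were called lower as well, Cdh5 and Esam. The median change of the 7 was -0.43, and 1 of them was positive. Their summed intensities were 1118 to 1305 in null cells and 1211 to 1624 in wildtype cells, and their part in the Sox18 value was not tested. Of 13 genes of hypertrophic cartilage and bone, 6 were measured and none was called (median -0.06). Phex, an endopeptidase of bone, stood at -0.34 (adjusted p = 0.41), the osteoblast factor Sp7 at -0.18 (adjusted p = 0.64) and the receptor Pth1r at -0.08 (adjusted p = 0.72), and Col10a1, the collagen of hypertrophic chondrocytes, was below background.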

How the data were processed

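RNA of 4 Bapx1 null and 4 Bapx1 wildtype samples was hybridized to Illumina MouseWG-6 arrays, 1 array per sample. The authors deposited probe intensity on a linear scale, without normalization between arrays as far as the values show, with a detection fraction per probe that is headed as a p-value but rises with brightness, and was taken as 1 minus the detection p. A further table deposited by the authors gives log2 values after their processing, with an unknown baseline per probe. The submitters' processing notes list GenomeStudio, for which the sources used here give no version, and the methods name background subtraction, scaling by the median absolute deviation and a variance test per probe. Each of the 45281 rows of one table was matched to a single row of the other from how its values differed over the arrays (tolerance 1e-05), and with the groups exchanged 0 rows matched. The annotation names 1 gene for 34885 probes, several for 18 and none for 10378.

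The nec function of limma 3.58.1 (R 4.3.3, offset 16) removed background, log2 was taken, and arrays were quantile-normalized. A probe entered the comparison if its detection p was below 0.05 on 4 or more of the 8 arrays (20593 did). Null and wildtype arrays were set against each other by limma's linear model and empirical Bayes test (two-sided), p-values were adjusted by Benjamini-Hochberg over all 20593 probes with 0.05 as threshold, and intervals are 95%. All adjusted p-values are limma's except those of the methods' t-test. No table column was without a sample. The chain was tested on simulated data.

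The genes, lists and alternatives were chosen with earlier results of these data known. Each compared probe of the 10 genes is given. Of other lists, every called gene is named, or the 3 with the largest change where none was called. Cell type markers are apart from this rule and are given mostly as counts and summed intensities. Col2a1 and Pkdcc were named after their values were seen. For Sox9 and Acan, the 3 genes with the highest Pearson r are given. Alternatives covered the scaling, the background correction (none, or normexp by saddle-point with an offset of 50), the processed table, the filter, the variance model, the t-test of the methods, a block for replicate number, the Y-linked level, and leaving out arrays. Chips could not be blocked, since columns and labels do not name them.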

Additional observations from a re-analysis of the deposited data

Results flagged for a closer look

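In the 34 groups of 4 arrays (17 probes in each genotype), 1 held an array far from the others: wildtype replicate 1 on the Matn4 probe ILMN_1215854, at 5.37 against 5.86 to 5.93 in the other wildtype arrays. Its gap to the nearest array was 0.866 of the group's range, past Dixon's 95% critical value for 4 samples; chance alone puts about 1 in 20 groups past that value.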

How the results depend on the processing

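The count of 817 called probes fell to 115 with scaling by the median absolute deviation, 333 in the processed table, 378 with the methods' t-test and 434 with the replicate block. It rose to 1749 when the Y-linked level was a covariate, and fell to between 464 and 645 without single arrays. For the 17 Sox and matrix probes the count of 0 became 6 with the Y-linked term and 3 without null replicates 2 and 3, and stayed 0 under the other 17 alternatives. Of 320 alternative values of these probes, 294 kept direction and call, 9 became called and 17 changed sign, on 6 probes. Without single arrays, changes ran between -0.00054 and 0.45 (Sox5 ILMN_2631143), -0.24 and 0.095 (Sox5 ILMN_2580904), -0.13 and 0.42 (Sox5 ILMN_1213910), -0.033 and 0.099 (Sox9 ILMN_2778151), -0.19 and 0.059 (Sox9 ILMN_3007428), and -0.00073 and 0.26 (Matn4 ILMN_1215854). Probes that kept their sign but moved by over 1.5 times ran between 0.075 and 0.39 (Sox5 ILMN_1244213), 0.014 and 0.15 (Sox5 ILMN_2448591), 0.055 and 0.21 (Hapln1), 0.27 and 0.53 (Matn1), 0.15 and 0.31 (Matn4 ILMN_2729289), -0.35 and -0.041 (Comp ILMN_2773395), and -0.25 and -0.094 (Comp ILMN_2869110). Sox5 ILMN_2580904 was at 0.040 with the scaling by deviation, 0.45 with the Y-linked term and 0.30 without null replicates 2 and 3. Sox9 ILMN_2778151 was at -0.018, -0.15 and -0.098 in these settings and at -0.051 in the processed table. With the Y-linked term and without null replicates 2 and 3, Sp7 was at 0.16 and 0.086 and Pth1r at 0.077 and 0.025. Calls among other chondrogenesis genes numbered 0 with the scaling by deviation and with the methods' t-test, 1 with detection on all arrays, and 5 without background correction, with saddle-point normexp or with a robust variance trend, beside 3 in the report and 2 to 4 without single arrays. Calls among other Sox genes were 1 instead of 2 with the scaling by deviation, without a filter, with the methods' t-test and without null replicates 2 and 3, and 1 to 2 without single arrays, while hypertrophic and bone genes had 1 call without null replicates 2 and 3. Causes were not tested. Deviations of same-numbered samples correlated at 0.058, 0.24, -0.18 and -0.26, so the numbers were not taken as pairs, and the block called none of the 17 probes. No compared probe of the 10 genes was below background on all arrays of a genotype, so no bound was needed.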
